A study of Homo sapiens with 6 samples.

Results

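Aminoacyl-tRNA synthetases are the enzymes that join each amino acid to its own transfer RNA (tRNA), the step at which the genetic code is read into protein. The genes described here are 37 synthetase genes of the nuclear genome, of 27192 gene symbols counted. They were chosen by name from a list, with earlier results of these data known. The list holds 21 genes for cytosolic enzymes and 16 for mitochondrial enzymes, under their older symbols, so that AARS stands for AARS1. GARS and KARS, which encode enzymes that serve both compartments, were counted as cytosolic. The study measured polyA RNA of U87, an established human glioblastoma cell line, by RNA sequencing. In 3 libraries, labelled siLINC00152 A, B and C, the cells had received 2 siRNAs together against the long noncoding RNA LINC00152. In 3 libraries, labelled siGL2 A, B and C, they had received a nonspecific control siRNA. Both groups were transfected in 2 rounds 24 hours apart with the same reagent and were harvested 24 hours after the last one, so both groups had been exposed to siRNA. The effects of the 2 siRNAs against LINC00152 cannot be told apart, nor can fewer cells that express a gene and less of its RNA per cell. The comparison asks how RNA levels differ in one cell line when LINC00152 is depleted. The labels do not say whether a group's 3 libraries came from separate cultures, so the spread behind each p-value is that of these libraries and may be technical.

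Synthetases fall into class I and class II, which differ in the fold of the catalytic domain. In animal cells, several cytosolic enzymes sit together with scaffold proteins in the multisynthetase complex, and the others act outside it. Mitochondria translate their own messages with a separate set of enzymes, encoded in the nucleus and imported, and these act on mitochondrial tRNAs. Bifunctional EPRS charges glutamate and proline in the cytosol, a task that EARS2 and PARS2 share between them in mitochondria. Mitochondria charge glutamine tRNA indirectly, through an amidotransferase, and so have no counterpart of QARS. Many cytosolic synthetase genes are known targets of ATF4, the transcription factor of the amino acid response.

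Library totals lay between 41963120 and 46234763 counts. LINC00152 stood at 14.98, 14.07 and 16.41 CPM (counts scaled to an equal library total) in siGL2 A, B and C and at 2.78, 2.67 and 2.56 CPM in siLINC00152 A, B and C. Its log2 fold change was -2.51 ± 0.09 (SE), or 17.6% of the control (edgeR's quasi-likelihood test, Benjamini-Hochberg adjusted p = 4.55e-15). CPM values were further scaled by the trimmed mean of M values (TMM), a correction for differences in RNA composition. The summed level of 5 mesenchymal glioma markers was 21892 to 22335 CPM in siGL2 and 22789 to 23421 CPM in siLINC00152 libraries. Summed levels of 5 markers each were lower after the knockdown for astrocytes (43.2 to 45.6 against 30.6 to 35.2 CPM, AQP4 at 0), neurons (75.2 to 77.6 against 51.4 to 57.0 CPM), oligodendrocytes (1.04 to 1.27 against 0.9392 to 0.9995 CPM, MOG and MAG at 0), microglia and leukocytes (22.2 to 23.0 against 12.7 to 13.7 CPM, AIF1 and TYROBP at 0) and endothelium (3.54 to 4.33 against 2.59 to 2.92 CPM). Single genes made up most of some sums: SLC1A3 (astrocytes) at a mean of 38.2 CPM over all libraries, SNAP25 (neurons) at 53.2 CPM and CSF1R (microglia and leukocytes) at 17.97 CPM. Of the 5 markers, 3 for astrocytes, 2 for neurons, 3 for oligodendrocytes, 4 for microglia and leukocytes and 1 for endothelium had a summed count of 10 or less. The part of these genes in the results was not tested. Of 14078 genes tested, 64.3% were called at an adjusted p below 0.05, with 32.2% higher and 32.2% lower, so a call alone is common in this comparison. Within groups, siGL2 A differed most from the others (chi-square per degree of freedom 11.5 and 14.5, against 3.02 for B and C), and results that depend on a single library are named where they occur.

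Synthetase transcripts were lower more often than higher after the knockdown. Of 35 members that passed the filter on low counts, 18 fell, 6 rose and 11 were not called, which is 51.4% lower and 17.1% higher, beside 32.2% each over all tested genes. Their median log2 fold change was -0.20, with a range of -0.81 to 0.43, beside -0.00 over all tested genes. In 27 of the 35 the log2 fold change was below 0, against 7059 of 14078 genes. CPM values of the groups did not overlap for 27 of the 35, while 67.7% of all tested genes had no overlap. A change of at least 1.5-fold was seen in 1 of the 35, FARS2, and in 2810 of the 14078 genes. Without siLINC00152 replicate C the median of the members was -0.12.

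Summed over the cytosolic genes, the level was 3358, 3450 and 3454 CPM in siGL2 A, B and C and 2997, 3100 and 3026 CPM in siLINC00152 A, B and C, a decrease of 11.1%. The mitochondrial sum was 761, 778 and 773 CPM in siGL2 and 668, 678 and 656 CPM in siLINC00152 libraries, a decrease of 13.4%. All 3 knockdown libraries were below all 3 control libraries in both sums. Abundant genes weigh most in such sums. Mean CPM went from 262 to 191 for CARS2 and from 175 to 151 for IARS2 in the mitochondrial sum. In the cytosolic sum IARS went from 524 to 381 CPM. Of 20 tested cytosolic genes 9 fell and 3 rose, or 45% and 15%. Of 15 tested mitochondrial genes 9 fell and 3 rose, or 60% and 20%. Over all tested genes the share was 32.2% in each direction. Median log2 fold changes were -0.09 for the cytosolic and -0.21 for the mitochondrial genes, a difference of 0.12 that was not tested. An offset for exon length reduced that difference to 0.04, and scaling by library size alone gave a cytosolic median of -0.16.

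**Figure D1:**
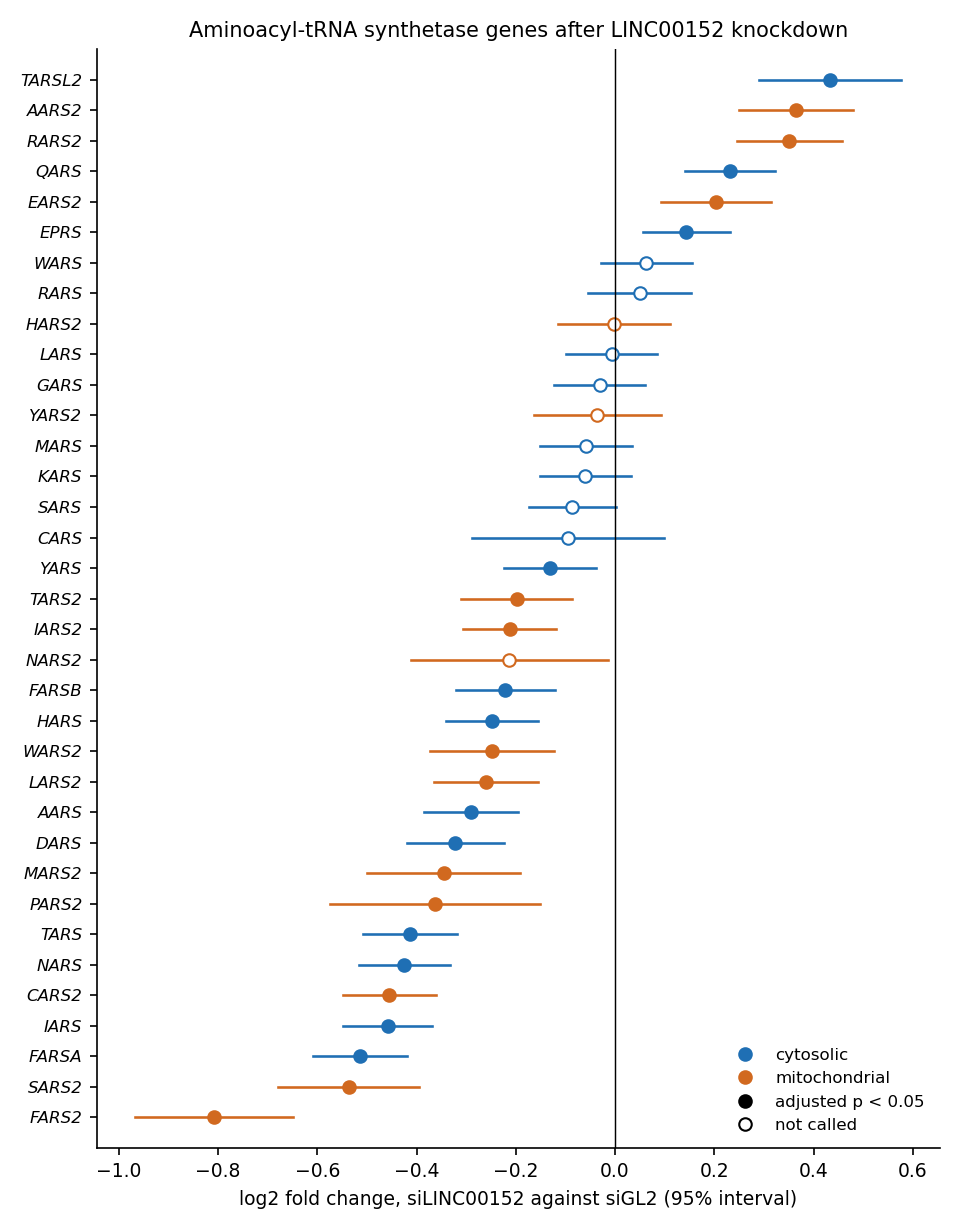
Log2 fold change of each tested synthetase gene, siLINC00152 against siGL2, with its 95% interval; blue points are cytosolic and orange points mitochondrial, and filled points have an adjusted p below 0.05. The 18 filled points left of the zero line run from YARS at -0.13 to FARS2 at -0.81, and the 6 filled points on the right from EPRS at 0.14 to TARSL2 at 0.43.

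Levels between genes are compared in TPM, the share of a library's transcripts after counts are divided by exon length. In siGL2 libraries the cytosolic genes had a median of 176 TPM and the mitochondrial genes a median of 30.7 TPM, beside 23.0 TPM over 13569 tested genes with an annotated length. IARS, the isoleucine enzyme, was highest at 326 ± 6.60 TPM (SD, n = 3), followed by NARS (asparagine) at 277 ± 3.93, SARS (serine) at 266 ± 0.948, KARS (lysine) at 251 ± 4.86 and GARS (glycine) at 235 ± 3.65 TPM. None of these neighbours overlapped between libraries. DARS, RARS and FARSA came next at 222, 221 and 214 TPM, and each overlapped the next in that order. By this length, the mitochondrial gene with the highest level was IARS2 at 194 ± 3.96 TPM, above EPRS and FARSB at 181 TPM each, which overlapped. TARS, AARS, QARS, CARS2, LARS and YARS followed from 170 down to 93.0 TPM without overlap between neighbours, with CARS2, the next mitochondrial gene, at 116 TPM. WARS, HARS, MARS and RARS2 lay between 75.1 and 72.1 TPM and overlapped from neighbour to neighbour.

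The lower end of the order was mitochondrial apart from TARSL2 and CARS. HARS2 stood at 52.8 and YARS2 at 47.4 TPM, and LARS2 and TARS2 overlapped at 41.5 and 38.7 TPM. EARS2, AARS2 and WARS2 followed at 30.7, 27.4 and 21.4 TPM, and then SARS2 and MARS2, which overlapped, at 18.72 and 17.95 TPM. TARSL2, FARS2 and NARS2 overlapped from neighbour to neighbour at 14.2, 13.0 and 11.7 TPM, above PARS2 at 9.12 and CARS at 2.58 TPM. The level of CARS is uncertain, as described with the valine genes below. With the longest transcript as the length, the order at the top changed: SARS stood at 378, IARS at 363, KARS at 294, DARS at 264, GARS at 258 and NARS at 255 TPM, while the medians were 150 and 31.0 TPM. The highest mitochondrial gene was then CARS2, at 240 TPM, above IARS2 at 159 TPM.

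**Figure D2:**
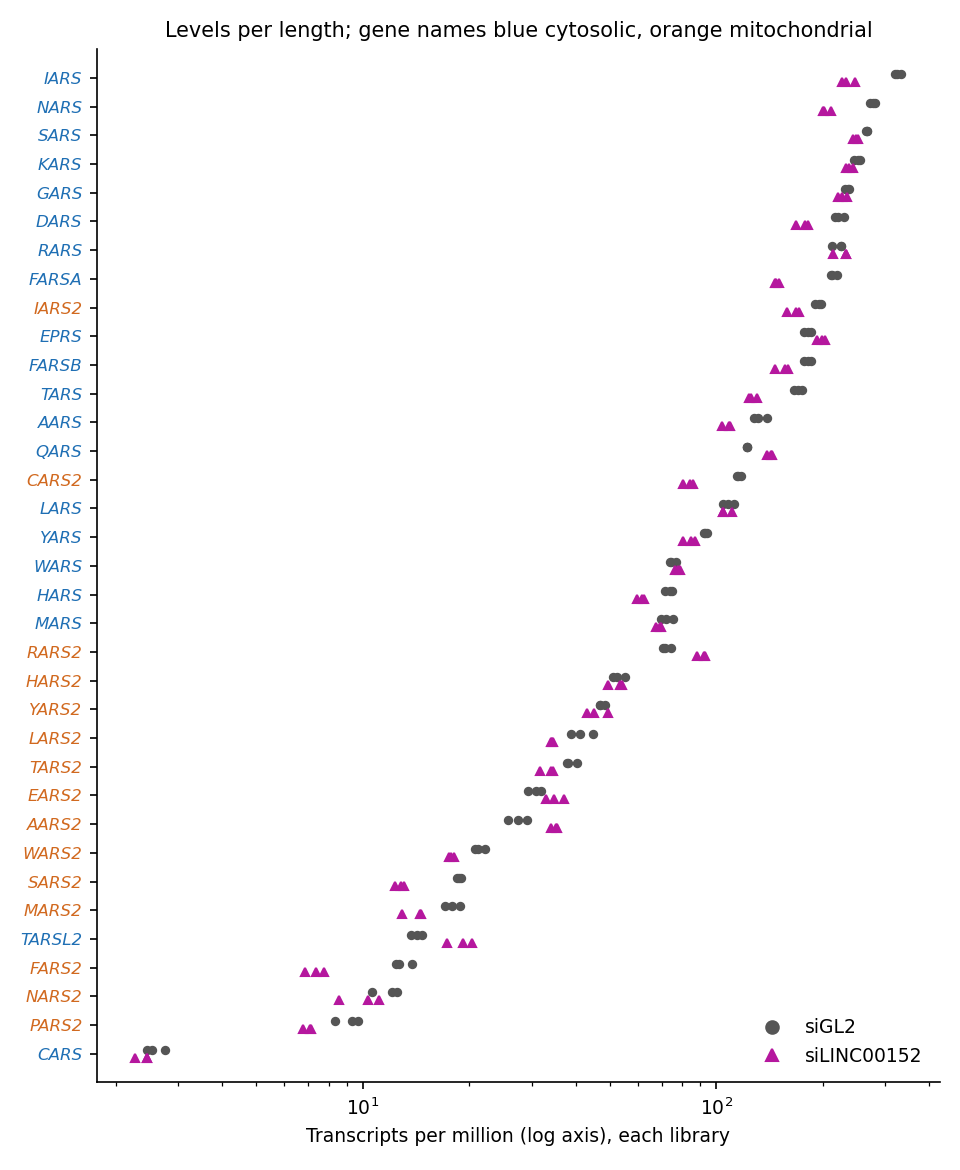
Level in TPM of each tested synthetase gene on a log axis, with grey circles for the 3 siGL2 libraries, purple triangles for the 3 siLINC00152 libraries, blue names for cytosolic and orange names for mitochondrial genes. Levels in siGL2 span from 2.58 TPM for CARS to 326 TPM for IARS, and most cytosolic genes lie above most mitochondrial ones, with TARSL2 and CARS low among the cytosolic genes. The level of CARS is uncertain.

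Among cytosolic enzymes, the largest decreases were in the genes for phenylalanine, isoleucine, asparagine and threonine charging. FARSA (chr19:12922479-12934037), the catalytic subunit of the cytosolic phenylalanine enzyme, stood at 110, 117 and 113 CPM in siGL2 A, B and C and at 79.1, 79.8 and 78.6 CPM in siLINC00152 A, B and C. Every knockdown library was below every control library, and FARSA fell by 0.51 ± 0.05 (SE) on the log2 scale (adjusted p = 3.96e-09). FARSB, its partner subunit, fell less, from 133 ± 4.90 to 114 ± 4.86 CPM (log2 fold change -0.22). IARS (chr9:92210207-92293756) stood at 526, 525 and 521 CPM in the control and at 378, 397 and 370 CPM in the knockdown libraries. The groups lay far apart for this most abundant member, with a log2 fold change of -0.46 ± 0.04 (adjusted p = 9.07e-09).

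NARS (chr18:57600656-57622213) was at 237, 251 and 249 CPM in siGL2 and at 180, 188 and 181 CPM in siLINC00152 libraries, again without overlap (log2 fold change -0.43 ± 0.04, adjusted p = 3.94e-08). TARS, the cytosolic threonine enzyme, fell from 211 ± 8.93 to 158 ± 3.51 CPM (-0.41), and DARS, the aspartate enzyme, from 194 ± 8.58 to 155 ± 5.78 CPM (-0.32). AARS, HARS and YARS, which charge alanine, histidine and tyrosine, completed the 9 that fell, at log2 fold changes of -0.29, -0.25 and -0.13. YARS was the smallest of these, with an adjusted p of 0.0141 that became 0.0608 without siGL2 replicate B and 0.111 without siLINC00152 replicate C.

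The 3 cytosolic genes that rose were TARSL2, QARS and EPRS. TARSL2 (chr15:101653598-101724604), a second cytosolic threonine enzyme at a far lower level than TARS, stood at 13.9, 13.7 and 14.7 CPM in siGL2 and at 17.4, 19.3 and 20.5 CPM in siLINC00152 libraries. It had the largest rise of any member, 0.43 ± 0.07 on the log2 scale (adjusted p = 1.31e-05), with no overlap of the groups. The 2 threonine genes thus changed in opposite directions: the ratio of TARS to TARSL2 in CPM was 14.5, 15.5 and 14.8 in the control and 8.91, 8.42 and 7.69 in the knockdown libraries (two-sided exact permutation test, p = 0.1, the smallest that 3 against 3 libraries allow). QARS (chr3:49095932-49105135), the glutamine enzyme, stood at 122, 125 and 126 CPM in siGL2 and at 148, 143 and 147 CPM in siLINC00152 libraries. Its groups did not overlap, and the log2 fold change was 0.23 ± 0.04 (adjusted p = 9.63e-05). EPRS (chr1:219968601-220046658) stood at 214, 212 and 217 CPM in siGL2 and at 231, 241 and 238 CPM in siLINC00152 libraries. The rise of EPRS was small, 0.14 ± 0.04 (adjusted p = 0.00551), and with scaling by library size alone it was 0.08 with an adjusted p of 0.117.

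Of the 8 synthetases of the multisynthetase complex, EPRS and QARS rose, IARS and DARS fell, and LARS, MARS, KARS and RARS were not called, with a median log2 fold change of -0.03. That is 25% in each direction, near the 32.2% each over all tested genes. The 95% intervals of those not called were -0.10 to 0.08 for LARS (leucine), -0.15 to 0.03 for MARS (methionine), -0.15 to 0.03 for KARS and -0.05 to 0.15 for RARS (arginine). KARS passed the threshold without siGL2 replicate A (adjusted p = 0.0453). Of the exonic bases of MARS, 12.4% lie opposite exons of other genes, with ARHGAP9 the largest partner. Outside the complex, 7 of 12 tested cytosolic genes fell, 1 rose and 4 were not called, at a median of -0.18, and the difference from the complex was not tested. The 4 not called were SARS at -0.09 (adjusted p = 0.0783), CARS (cysteine) at -0.09, GARS at -0.03 and WARS (tryptophan) at 0.06. SARS passed without siGL2 replicate A (adjusted p = 0.0246). Of the exonic bases of WARS, 10.6% lie opposite other exons, with AL157871.4 the largest partner. Among called members of both compartments this share was highest for SARS2 (10.8%), HARS (8.4%), DARS (7.6%), EARS2 (6.5%) and AARS2 (5.5%).

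For a split by structural class, EPRS was left out because it holds a domain of each. Of 18 tested class II genes 11 fell and 2 rose, or 61.1% and 11.1%, at a median log2 fold change of -0.23. Of 16 tested class I genes 7 fell and 3 rose, or 43.8% and 18.8%, at a median of -0.08. Over all tested genes 32.2% fell and 32.2% rose. Among cytosolic genes, 7 of 11 class II (63.6%) and 2 of 8 class I genes (25%) fell, the latter being IARS and YARS. The difference between the classes was not tested.

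Among mitochondrial enzymes, FARS2, SARS2 and CARS2 had the largest decreases. FARS2 (chr6:5261044-5829192), the single-chain phenylalanine enzyme of mitochondria, stood at 13.0, 14.6 and 13.2 CPM in siGL2 and at 7.84, 8.16 and 7.28 CPM in siLINC00152 libraries. Its groups did not overlap, and its decrease was the largest of the tested members, 1.75-fold (log2 fold change -0.81 ± 0.08, adjusted p = 1.01e-08). SARS2 (chr19:38915266-38930896), the serine enzyme, was at 13.1, 13.2 and 13.1 CPM in siGL2 and at 9.30, 9.04 and 8.78 CPM in siLINC00152 libraries. It fell by 0.54 ± 0.07 (adjusted p = 7.4e-07), but 43.7% of its 75-base stretches also occur in the overlapping gene model AC011455.2, so its count is uncertain. CARS2 (chr13:110641412-110713603), the cysteine enzyme, stood at 254, 269 and 264 CPM in the control and at 198, 192 and 185 CPM in the knockdown libraries. No libraries overlapped, and the log2 fold change of CARS2 was -0.45 ± 0.05 (adjusted p = 1.86e-08).

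PARS2 (chr1:54756898-54764514), the proline enzyme, fell at a low level, from 4.66, 4.98 and 4.29 CPM in siGL2 to 3.65, 3.47 and 3.69 CPM in siLINC00152 libraries (-0.36 ± 0.10, adjusted p = 0.0039). The other mitochondrial genes that fell were MARS2 at -0.35, LARS2 at -0.26, WARS2 at -0.25, IARS2 at -0.21 and TARS2 at -0.20, enzymes for methionine, leucine, tryptophan, isoleucine and threonine. NARS2 had a like value, -0.21, with overlapping groups and an adjusted p of 0.0561. It became called without siGL2 replicate C, without siLINC00152 replicate B, without the filter on low counts and with scaling by library size alone. YARS2 at -0.04 and HARS2 at -0.00 were not called, with 95% intervals of -0.16 to 0.09 and -0.12 to 0.11.

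AARS2, RARS2 and EARS2 went the other way. AARS2 (chr6:44299654-44313326), the mitochondrial alanine enzyme, stood at 26.5, 25.8 and 24.3 CPM in siGL2 and at 33.4, 33.1 and 32.1 CPM in siLINC00152 libraries. All 3 knockdown libraries were above the control libraries, with a log2 fold change of 0.37 ± 0.06 (adjusted p = 7.05e-06). RARS2 (chr6:87514378-87590003), the arginine enzyme, was at 38.1, 39.8 and 41.5 CPM in siGL2 and at 49.3, 51.5 and 51.6 CPM in siLINC00152 libraries. It rose by 0.35 ± 0.05 without overlap (adjusted p = 4.13e-06). EARS2 (chr16:23522014-23557731), the glutamate enzyme, stood at 38.8, 36.8 and 38.7 CPM in siGL2 and at 43.7, 46.3 and 41.6 CPM in siLINC00152 libraries, a smaller rise of 0.20 ± 0.05 (adjusted p = 0.0023) with the groups apart.

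**Figure D3:**
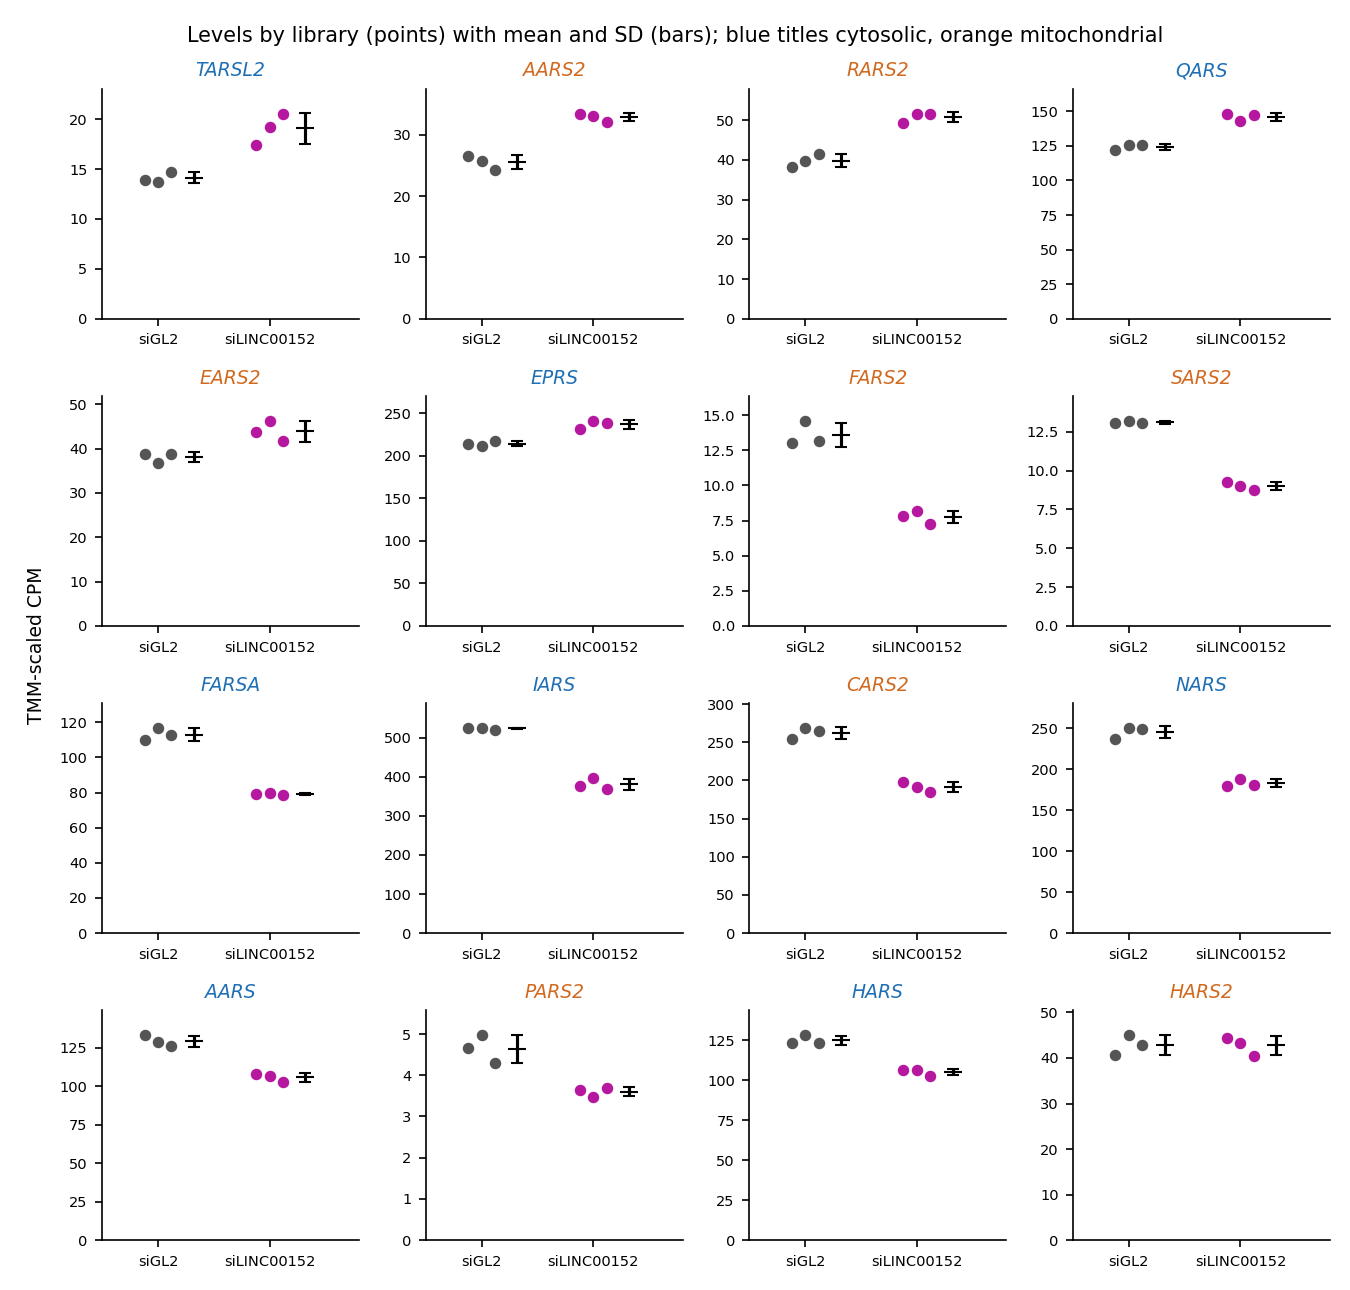
CPM of the members named by the rule in each library, with grey points for siGL2 A, B and C, purple points for siLINC00152 A, B and C, black bars for mean ± SD over 3 libraries, and axes that start at 0. In 15 of the 16 panels the groups do not overlap, beside 67.7% of all tested genes, and most panels show genes picked for large changes. The groups overlap for HARS2, which lies between 40.5 and 45.0 CPM in all libraries.

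The cytosolic and mitochondrial genes for one amino acid were compared as the ratio of their CPM within each library, which does not depend on scaling between libraries. There were 16 such pairs, counting FARSA and FARSB each against FARS2 and EPRS against both EARS2 and PARS2, so some pairs share a gene. The ratio did not overlap between the groups in 13 pairs. Each of these had p = 0.1 in a two-sided exact permutation test, the smallest possible, and 0.123 after Benjamini-Hochberg adjustment over the pairs. Of all tested genes taken singly, 67.7% had no overlap in CPM, and ratios of other gene pairs were not computed. How unusual 13 of 16 is was therefore not tested. With 3 against 3 libraries this permutation test cannot reach 0.05 for any pair.

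In 2 pairs the partners were called in opposite directions. Of the tested genes taken singly, 45% of the cytosolic and 60% of the mitochondrial ones fell, and 15% and 20% rose. Over all tested genes the share was 32.2% in each direction. How unusual the counts of pairs by direction are was not tested. AARS (chr16:70252295-70289543) stood at 133, 129 and 126 CPM in siGL2 and at 108, 107 and 103 CPM in siLINC00152 libraries (-0.29 ± 0.05, adjusted p = 1.13e-05), while AARS2 rose. The log2 ratio of AARS to AARS2 was 2.33, 2.32 and 2.38 in the control and 1.70, 1.69 and 1.68 in the knockdown libraries, the widest difference of the pairs at -0.66. For proline, EPRS rose and PARS2 fell, though EPRS was not called with scaling by library size alone. Their log2 ratio went from 5.52, 5.41 and 5.66 to 5.98, 6.12 and 6.01. That is a difference of 0.51, with every knockdown library above every control library.

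In 4 pairs both genes fell: FARSA with FARS2, FARSB with FARS2, IARS with IARS2, and TARS with TARS2. FARS2 thus enters both phenylalanine pairs. With 45% of the cytosolic and 60% of the mitochondrial genes lower, the count of 4 is not read as a link between partners. The mitochondrial partner fell further for phenylalanine, with ratio differences of 0.29 and 0.59 for FARSA and FARSB. For isoleucine and threonine the cytosolic partner fell further, with differences of -0.25 and -0.21. EPRS and EARS2, the glutamate genes, both rose, and their ratio overlapped between groups (difference -0.06, p = 0.3, exact permutation test). In the other 9 pairs 1 gene was called, among them serine, where SARS2 fell and SARS had a value of -0.09 (ratio difference 0.45), and arginine, where RARS2 rose and RARS had a value of 0.05 (ratio difference -0.30).

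**Figure D4:**
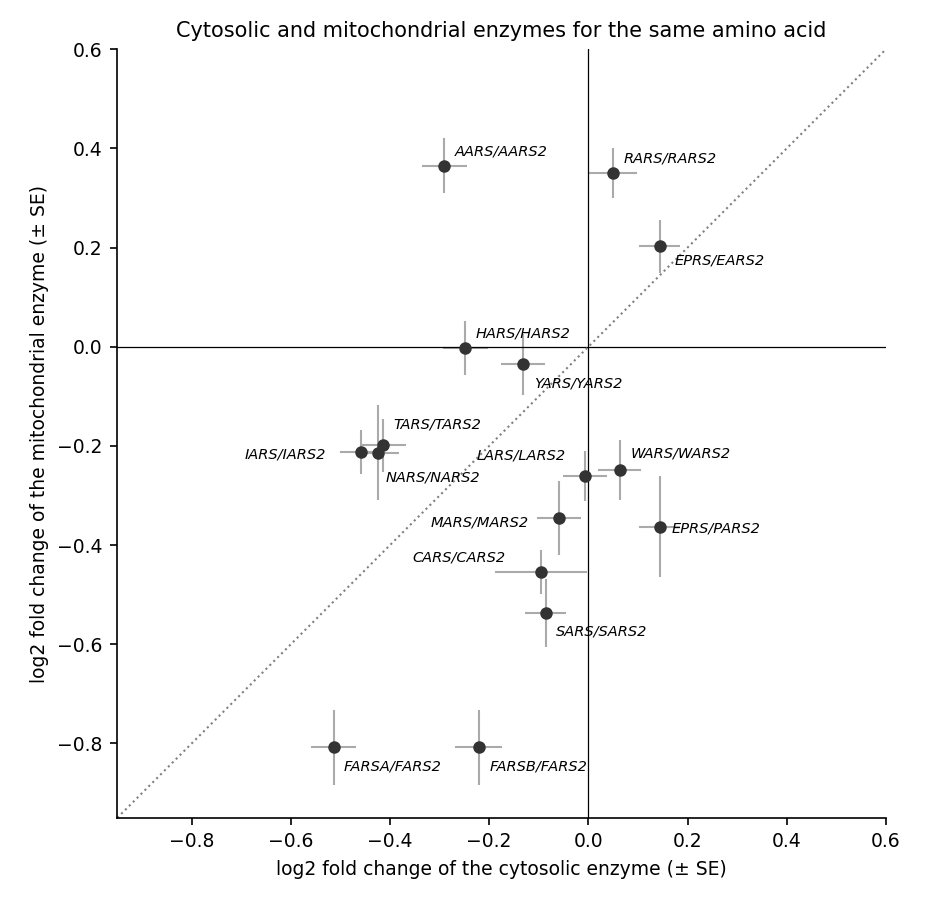
Log2 fold change of the mitochondrial gene (vertical axis) against that of the cytosolic gene (horizontal axis) for the same amino acid, with SE bars; on the dotted line both changed equally. AARS/AARS2 lies in the upper left and EPRS/PARS2 in the lower right, and FARSA/FARS2 and FARSB/FARS2 are lowest at -0.81.

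HARS and HARS2 are neighbours on chromosome 5 that point away from each other. HARS, the cytosolic histidine gene, lies at chr5:140673904-140691862 on the minus strand, and HARS2, the mitochondrial one, at chr5:140691426-140699318 on the plus strand, where the annotated genes overlap by 437 bases. In RefSeq their starts, at 140691370 and 140691455, have 84 bases between them. HARS stood at 123, 128 and 123 CPM in siGL2 and at 106, 107 and 103 CPM in siLINC00152 libraries, without overlap (-0.25 ± 0.04, adjusted p = 5.76e-05). HARS2 stood at 40.6, 45.0 and 42.9 CPM in siGL2 and at 44.4, 43.4 and 40.5 CPM in siLINC00152 libraries, which overlap. The log2 ratio of HARS to HARS2 was 1.60, 1.51 and 1.52 in the control and 1.26, 1.30 and 1.34 in the knockdown libraries, a difference of -0.25 (p = 0.1, exact permutation test). Exons on the other strand, with HARS the largest partner, cover 11.7% of the exonic bases of HARS2. Whether reads were counted by strand is not given in the sources used. EPRS and IARS2 lie on opposite strands of chromosome 1 with 47443 bases between them, and EPRS rose where IARS2 fell. Whether other genes lie between EPRS and IARS2 was not examined, so they are not taken as an adjacent pair.

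RefSeq promoter windows, of 250 bases before to 50 bases after a gene's start (assembly GRCh38.p14), were matched for 30 members. The word TGATGNAA, part of the C/EBP-ATF response element that ATF4 binds, was searched on both strands and found in the windows of 8 members. That is 20.5% of 39 member windows, beside 3.62% of 35116 windows of all genes. The narrower word TGATGCAA was in 15.4% of the member windows and in 0.866% of all windows. CACGTG, the E-box word, was in windows of IARS, CARS2, EARS2 and MARS2, or 12.8% of member windows, beside 7.26% of all. These are letter matches, not binding sites.

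The 8 matches to TGATGNAA are shown with flanking bases on the strand that reads the word, because 7 of them belong to cytosolic enzymes whose values differ; capitals mark the word. They lie, in the order shown, at chr16:70289676-70289703, chr9:92293693-92293720, chr18:57621805-57621832, chr5:33440957-33440984, chr11:3057408-3057435, chr7:30594835-30594862, chr12:57488054-57488081 and chr12:32756077-32756104.
AARS: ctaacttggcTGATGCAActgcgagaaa
IARS: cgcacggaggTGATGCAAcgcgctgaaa
NARS: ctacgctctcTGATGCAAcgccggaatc
TARS: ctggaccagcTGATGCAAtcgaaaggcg
CARS: tcctagaatcTGATGCAAccgccgcccc
GARS: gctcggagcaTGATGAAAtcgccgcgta
MARS: aatccctcgcTGATGCAAccggaaccgg
YARS2: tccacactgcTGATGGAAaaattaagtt
The first 4, AARS, IARS, NARS and TARS, fell, at log2 fold changes of -0.29, -0.46, -0.43 and -0.41. CARS, GARS, MARS and YARS2 were not called, at -0.09, -0.03, -0.06 and -0.04, and none of the 8 rose. The 4 of 8 that fell are near the share of all tested members that fell, 51.4%, beside 32.2% of all tested genes. ATF4 itself stood at 135, 142 and 145 CPM in siGL2 and at 121, 117 and 116 CPM in siLINC00152 libraries (log2 fold change -0.25 ± 0.05, adjusted p = 6.72e-05). The groups do not overlap for ATF4, and its part in the members' values was not tested.

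VARS and VARS2, the valine genes, were not tested because their counts were at or near 0. VARS had counts of 0, 0 and 0 in siGL2 and 0, 0 and 1 in siLINC00152 libraries, and VARS2 had 5, 0 and 2 against 3, 0 and 3. A count of 0 allows up to 3 counts, or 0.0649 to 0.0715 CPM by library, which covers counting error only. Both genes lie in the major histocompatibility region of chromosome 6 (VARS at chr6:31777518-31795953, VARS2 at chr6:30908242-30926459). From the start of HLA-F to the end of HLA-DPB1 (29722775 to 33087201), 94 of 131 protein-coding genes, or 71.8%, had a summed count of 10 or less over all libraries, against 28.2% of 877 on the rest of the chromosome. The VARS and VARS2 counts are therefore not read as levels, and the cause of the low counts was not tested. CARS (chr11:3000922-3057613) also had few counts for a cytosolic synthetase, 227, 240 and 287 in siGL2 and 222, 209 and 231 in siLINC00152 libraries, which overlap (log2 fold change -0.09, 95% interval -0.29 to 0.10). The protein-coding genes on either side, NAP1L4 and OSBPL5, had 341 to 564 and 461 to 559 counts by library. Whether counts are lost around CARS was not tested. Its level and its ratio to CARS2 are therefore uncertain.

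Of 91 other genes of tRNA charging and use in 8 lists, 88 were tested, at a median log2 fold change of -0.19. Among the 88, 47 fell and 15 rose, or 53.4% and 17.0%, beside 32.2% each over all tested genes. The scaffolds of the multisynthetase complex all fell: AIMP1 by 0.24, AIMP2 by 0.26 and EEF1E1 by 0.35. Of 4 genes that build initiator and glutamine tRNAs in mitochondria, the amidotransferase subunit genes QRSL1 (-0.46) and GATB (-0.22) and the formyltransferase gene MTFMT (-0.17) fell. GATC, the third amidotransferase subunit, rose, from 62.1, 65.9 and 65.5 CPM in siGL2 to 79.7, 84.8 and 83.3 CPM in siLINC00152 libraries (0.36 ± 0.05, adjusted p = 1.48e-06). Thus 2 subunits of one enzyme fell and the other rose, each without overlap of the groups. In the proofreading list, 1 of 2 tested genes fell, the D-aminoacyl-tRNA deacylase DTD1 at -0.25, and DTD2 had a value of 0.11 (adjusted p = 0.204).

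Elongation factors deliver charged tRNAs to the ribosome and move it along. Of 6 cytosolic ones, EEF1B2 (-0.53), a nucleotide exchange factor, and EEF2 (-0.14), the translocase, fell. EEF1A2 rose (0.53) at a low level of 1.06 to 2.19 CPM over all libraries, and its groups overlapped. Of 4 mitochondrial ones GFM2 (-0.36), TUFM (-0.20) and TSFM (-0.18) fell and none rose. Among 21 tested genes of tRNA end processing, splicing and export 12 fell and 3 rose, or 57.1% and 14.3%, at a median of -0.26. The share over all tested genes was 32.2% in each direction. POP4 (-0.42) and POP7 (-0.50), subunits of nuclear RNase P, were among the falls, and HSD17B10 (0.30), a subunit of mitochondrial RNase P, among the rises. Of 23 tRNA modification genes 14 fell and 2 rose, or 60.9% and 8.7%, at a median of -0.20. Those that fell include METTL1 (-0.52), a tRNA guanine methyltransferase, ELP3 (-0.44), the catalytic subunit of Elongator, and PUS1 (-0.39), a pseudouridine synthase.

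Of the 25 genes of the amino acid stress response 9 fell and 8 rose, or 36% and 32%, near the 32.2% each over all tested genes, at a median log2 fold change of -0.02. PHGDH, which starts serine synthesis, stood at 86.3, 86.1 and 85.2 CPM in siGL2 and at 23.1, 20.9 and 18.8 CPM in siLINC00152 libraries (-2.04 ± 0.06, adjusted p = 2.16e-16). MTHFD2, a mitochondrial enzyme of folate metabolism, fell by 1.30, and EIF2AK3, which encodes the stress kinase PERK, rose by 0.82. All 3 values lie outside the range of the synthetases, -0.81 to 0.43.

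**Figure D5:**
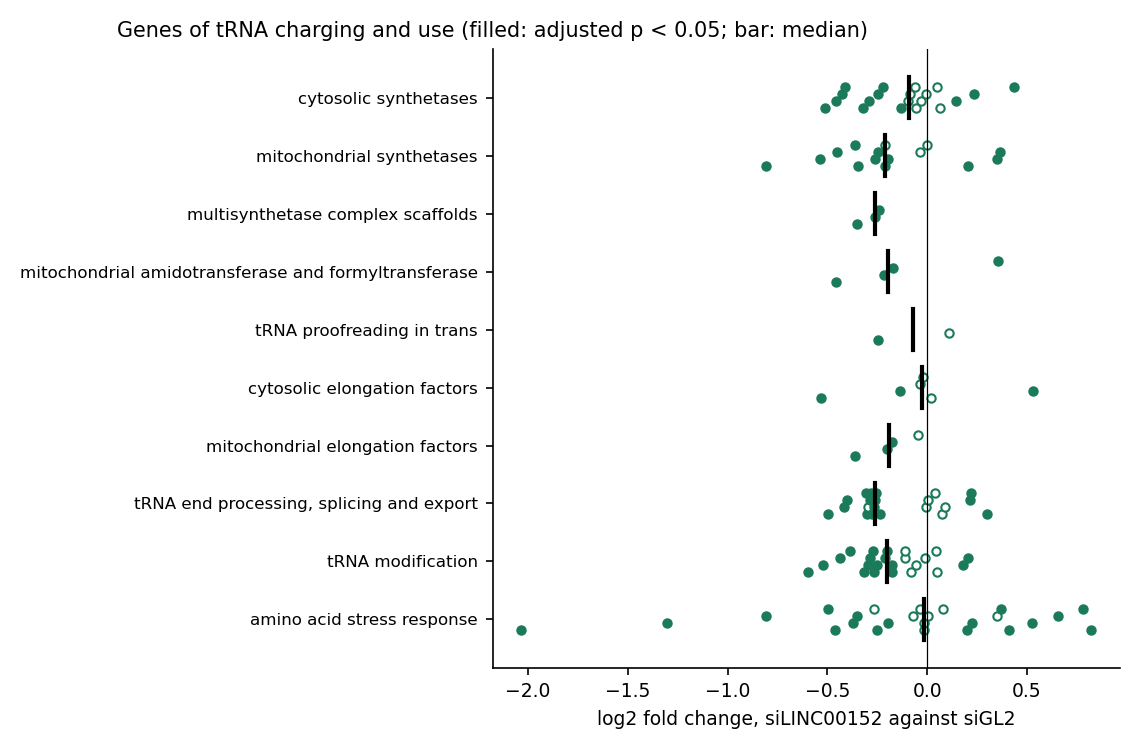
Log2 fold changes of the tested members and of the genes in 8 other lists, one point a gene, filled where the adjusted p is below 0.05, with a black bar at each list's median. The medians run from -0.26 for tRNA end processing, splicing and export to -0.02 for the amino acid stress response, where PHGDH lies farthest left at -2.04.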

How the data were processed

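For each library the authors deposited one table of raw read counts by gene symbol, in whole numbers. bcl2fastq, HISAT, HTSeq and DESeq, and the build hg38, are named per the submitters' processing notes, without versions. Per the labels' protocols, a directional kit and paired-end sequencing of 75 bases from each end were used. Which annotation was counted, whether by strand, and how multiply matching reads were treated are not stated in those sources.

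All further values were computed from these counts with R 4.3.3, edgeR 4.0.16, DESeq2 1.42.0, Python 3.11.15 (scipy 1.17.1, pandas 2.3.3). filterByExpr (minimum count 10, minimum total 15) kept 14078 of 27192 genes. The test was edgeR's quasi-likelihood test with robust fitting, on TMM-scaled counts of all 6 libraries without covariates. Benjamini-Hochberg adjustment of its p-values ran over all tested genes. Tests were two-sided, and CPM is given as mean ± SD over 3 libraries. TPM used union exon lengths from GENCODE 29 (GRCh38, the same assembly as hg38), which matched all 37 members. Promoter windows are from RefSeq. For DARS, LARS, TARSL2, VARS, YARS, AARS2 and VARS2 no full-length window was matched by symbol in the set used.

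The members, lists and tests were chosen with earlier results of these data known. Values by library are given for the 6 largest rises and 6 largest falls among called members with a mean of at least 10 CPM, for pairs called in opposite directions and for HARS with HARS2. Of each other list, up to 3 genes with the smallest p are named, and ATF4. MTFMT, HLA-F, HLA-DPB1, NAP1L4 and OSBPL5 were named, and GATC, PHGDH, CARS, VARS and VARS2 were given by library, after their values were seen. Alternatives were DESeq2, scaling by library size alone, no filter on low counts, each library left out, the replicate letter as a block, an offset for exon length, another transcript length, a pseudocount of 1 CPM in the ratios, GARS and KARS left out and a narrower promoter word.

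Tested on simulated data with 14070 tested genes, of which 50 changed at each size, the fit recovered 80% of the changes by 1.25-fold and 82% of those by 1.5-fold. It recovered 98% at 2-fold and 100% at 4-fold, with 9 false calls. Far fewer genes changed in the simulation than the 64.3% called in the data. These rates are therefore not taken as the error rates of the real comparison.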

Additional observations from a re-analysis of the deposited data

How the results depend on the processing

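Of the 35 tested members, 23 kept their direction and their side of the threshold under all 11 alternative fits, and so did 22 of the 24 called ones; EPRS and YARS were the exceptions. DESeq2 called 6 members higher and 18 lower. With the replicate block, 6 were higher and 19 lower, the added call being NARS2. Deviations of same-letter libraries correlated at 0.13, -0.03 and 0.18, and those of different-letter libraries at -0.22 to 0.09. These values do not settle whether letters pair the libraries, and the main fit was made without the letters. Scaling by library size alone gave 5 higher and 22 lower, medians of -0.16 (cytosolic), -0.28 (mitochondrial) and -0.27 (all), and reversed RARS to -0.0179 and WARS to -0.0039, neither called. Without the low-count filter the median of all members was -0.13, since VARS and VARS2 enter. With the exon length offset the cytosolic median was -0.14, that of all members -0.17 and the difference between compartments 0.0403, and GARS (0.00445), HARS2 (0.0426) and YARS2 (0.074) reversed, none called. With GARS and KARS left out the cytosolic median was -0.11. Leaving out 1 library at a time, medians ranged from -0.12 to -0.0787 (cytosolic), -0.26 to -0.22 (mitochondrial) and -0.21 to -0.12 (all), and the difference from 0.10 to 0.18. The sign of LARS (-0.0323 to 0.00863), HARS2 (-0.038 to 0.0364) and YARS2 (-0.0881 to 0.00639) then varied, none called. The cause of these shifts was not tested otherwise. KARS, MARS, SARS, RARS and NARS2, not called, were called under at least 1 alternative. Depth limits CARS, PARS2 and NARS2, which have the widest intervals of the tested members, and leaves the valine genes without a value.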
